A study of Mus musculus with 17 samples.

Results

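Transcripts of 10 genes of the nuclear lamina and of the high mobility group (HMG) chromatin proteins were followed through cultured kidney tubule cells and ageing kidneys of the mouse. The genes were Lmnb1, Lmnb2, Lmna, Lbr, Tmpo, Banf1, Hmgb1, Hmgb2, Hmga1 and Hmga2. They were chosen by symbol, and all 10 were found among the 53313 gene identifiers common to all 17 libraries. Primary tubular epithelial cells (PTEC) had been grown in REGM2 medium from collagenase-digested tubular fragments of wild-type (WT) mice. Non-senescent PTEC (n = 4 cultures) were untreated cells of day 6, and senescent PTEC (n = 4) were cells of day 16 exposed to γ-irradiation with 10 Gray. The effects of irradiation and of the longer culture therefore cannot be told apart. Kidney tissue came from untreated WT male mice of 3, 12 and 24 months (n = 3 each). The labels call it whole kidney, and a part of the right kidney was used for RNA. The strain of all mice is written C57BL/6Rj in the labels and C57BL/6JRj in the methods of the study. Reads counted on genes ranged from 26963442 to 35409144 in PTEC and from 37311247 to 66894790 in kidneys. Levels are given as CPM, the reads of a gene relative to the scaled size of its library, and values after ± are SD unless SE is named. No source states that the cultures came from separate mice, so p-values for PTEC measure the spread between these cultures, which may be technical.

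Lamins are filaments that line the inside of the nuclear envelope. Lmnb1 and Lmnb2 encode the B-type lamins, and Lmna encodes lamins A and C. Lbr, Tmpo and Banf1 encode proteins that tie lamins, membrane and chromatin together. HMGB proteins bend DNA, and HMGA proteins bind the minor groove of AT-rich DNA. Lamin B1 is known to be lost from many senescent cells, which are permanently withdrawn from the cell cycle. HMGB1 can leave the nucleus of stressed cells and act as a danger signal, and HMGA proteins are known to gather on the compacted chromatin of some senescent fibroblasts. Several of these genes are also known to be more active in dividing than in resting cells.

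The labels call the cultured cells proximal tubular cells. Of 8 markers of the proximal tubule, 7 reached 1 CPM on average in non-senescent PTEC, 4 in senescent PTEC and all 8 in the kidneys. Their summed level was 209 to 794 CPM in non-senescent PTEC, 166 to 351 CPM in senescent PTEC and 7011 to 15473 CPM in kidneys. In PTEC the summed markers of B and plasma cells stayed at or below 0.804 CPM and those of T and NK cells at or below 0.328 CPM. Of the T and NK cell markers, Cd3g, Cd3d and Gzma had no count in any culture. Macrophage markers were present in PTEC, with all 8 at 1 CPM or more on average in both groups. They summed to 88.6 to 138 CPM in non-senescent PTEC, 61.8 to 246 CPM in senescent PTEC and 109 to 233 CPM in kidneys, and their part in the results was not tested. As in all bulk samples, fewer cells of a type and less RNA per cell cannot be told apart.

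Sequences before the start sites of 9 of the 10 genes, all but Lmnb1, were taken from RefSeq (GRCm38.p6, 250 bases before each start, 15 windows because some genes have more than 1 start). They were searched on both strands for CCAAT, the box bound by NF-Y, for TTTGAA and TTCGAA, the cell cycle homology region (CHR), and for TTCGCGC and TTGGCGC, which are E2F sites. These elements are known from promoters of genes used in dividing cells. The windows below are shown because they hold at least 2 CCAAT boxes and belong to genes that were lower in senescent PTEC, apart from that of Hmga2, which is shown as a gene that was also lower but whose window holds none of these letters. Each is written 5′ to 3′ on the strand of its gene, with CCAAT and CHR matches of either strand in capitals. Hmgb2 is read from chr8:57511593-57511842 on the plus strand. The others lie on the minus strand, with Lbr at chr1:181842402-181842651, the first window of Tmpo at chr10:91171620-91171869, the first window of Hmgb1 at chr5:149053058-149053307 and Hmga2 at chr10:120476470-120476719.
Hmgb2: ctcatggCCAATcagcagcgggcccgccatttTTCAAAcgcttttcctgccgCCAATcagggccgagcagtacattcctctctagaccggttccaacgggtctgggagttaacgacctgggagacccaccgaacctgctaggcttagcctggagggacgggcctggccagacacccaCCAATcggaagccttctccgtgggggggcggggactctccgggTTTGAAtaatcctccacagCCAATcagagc
Lbr: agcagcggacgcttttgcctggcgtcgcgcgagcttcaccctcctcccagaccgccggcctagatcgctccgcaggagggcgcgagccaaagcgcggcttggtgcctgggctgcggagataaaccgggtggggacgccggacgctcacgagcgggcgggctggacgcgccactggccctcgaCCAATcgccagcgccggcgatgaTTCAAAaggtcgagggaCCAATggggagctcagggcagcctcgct
Tmpo: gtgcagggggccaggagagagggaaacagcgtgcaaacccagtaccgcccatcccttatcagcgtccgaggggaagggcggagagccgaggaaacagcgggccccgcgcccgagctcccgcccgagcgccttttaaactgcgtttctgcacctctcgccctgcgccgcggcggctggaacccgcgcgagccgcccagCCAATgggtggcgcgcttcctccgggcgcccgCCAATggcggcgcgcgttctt
Hmgb1: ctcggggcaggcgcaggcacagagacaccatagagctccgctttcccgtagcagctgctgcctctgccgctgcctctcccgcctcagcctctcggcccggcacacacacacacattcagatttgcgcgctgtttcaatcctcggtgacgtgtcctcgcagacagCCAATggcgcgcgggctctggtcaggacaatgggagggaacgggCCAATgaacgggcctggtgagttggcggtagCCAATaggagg
Hmga2: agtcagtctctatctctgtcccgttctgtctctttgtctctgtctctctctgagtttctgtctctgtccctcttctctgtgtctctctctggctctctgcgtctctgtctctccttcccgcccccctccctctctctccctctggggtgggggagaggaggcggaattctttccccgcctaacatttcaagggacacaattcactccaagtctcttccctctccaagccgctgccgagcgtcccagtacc

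The Hmgb2 window holds 4 CCAAT boxes and 2 CHR matches. Its boxes start 243, 198, 73 and 11 bases before the start site, and a TTTGAA starts 30 bases before it. Of 32817 windows of this length in the same table, 0.835% hold at least 4 CCAAT boxes and 0.149% hold these together with a CHR. In the Lbr window a CHR on the opposite strand, 45 to 40 bases before the start, lies between CCAAT boxes that begin 68 and 28 bases before it. A CHR with at least 2 CCAAT boxes is found in 1.71% of all windows. The Tmpo window holds 2 CCAAT boxes and that of Hmgb1 holds 3, against 10.1% of all windows with at least 2. A second Tmpo window holds 1 CHR (17.1% of all windows have one), the first Banf1 window and the second Lmna window hold 1 CCAAT box each (33.8% of all windows), and the first Lmnb2 window holds 1 E2F site (3.14%). No match was found in the windows of Hmga1 and Hmga2. The minimum numbers of boxes and their combinations with a CHR were set to what these windows hold, so their shares are no test of rarity. Matches describe letters only, and no binding was measured.

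In senescent PTEC, 9 of the 10 genes were lower than in non-senescent PTEC and none was higher. Hmgb2, Lmnb1 and Lbr had the lowest log2 fold changes, Lmnb2 was lower by a smaller fold, and Lmna, the gene of lamins A and C, did not pass the test. Calls were made with edgeR's quasi-likelihood test with Benjamini-Hochberg adjustment, and needed an adjusted p under 0.05 together with a log2 fold change beyond 0.5 in either direction, as set by the study. By the same rule 19.7% of the 15434 genes tested were lower in senescent PTEC and 20.1% were higher. The median log2 fold change of the 10 genes was -1.53, beside -0.0020 over all genes tested. Each of the 10 genes was lower in the senescent culture in 4 of 4 pairs of cultures with the same replicate number, as were 31.0% of all genes tested. For 9 of the 10 every senescent culture was below every non-senescent one, against 19.9% of all genes. Without non-senescent replicate 4 all 10 were called, and without each of the other cultures in turn 9 were.

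**Figure D1:**
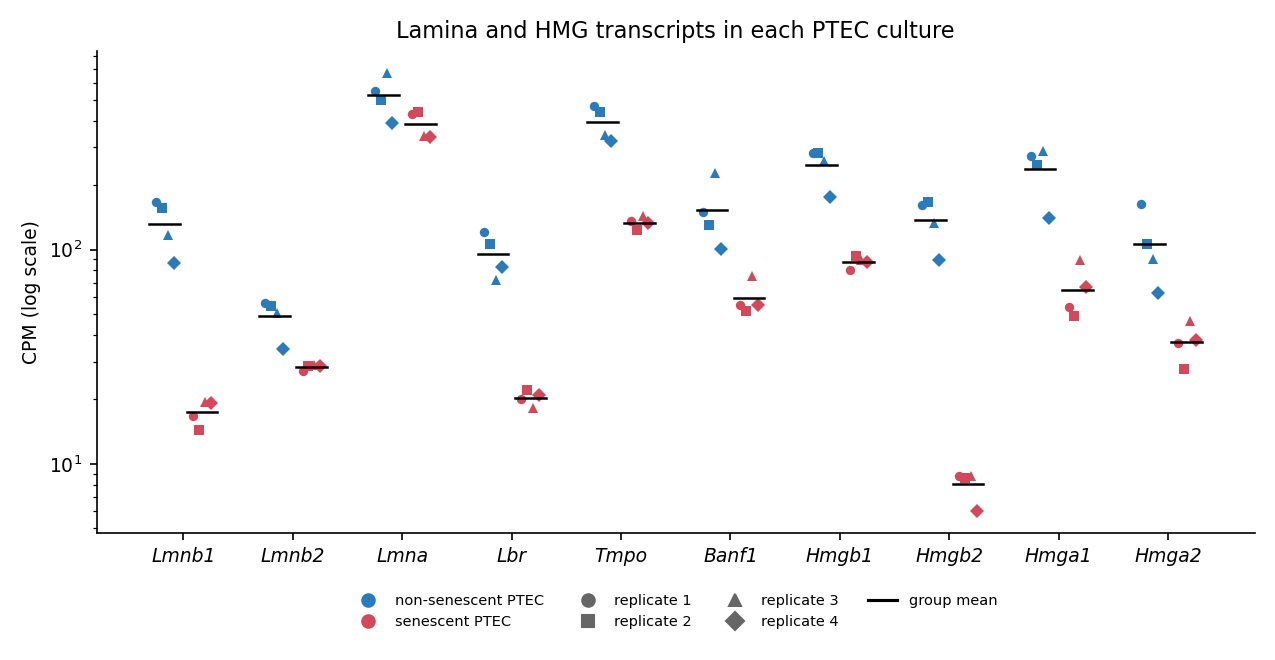
CPM (log scale) of the 10 genes in each of the 4 non-senescent (blue) and 4 senescent (red) PTEC cultures, with replicate numbers as symbols and group means as bars. The groups overlap for Lmna and for none of the other 9 genes (19.9% of all genes tested lie fully lower), and the means of Hmgb2 are 137 and 8.05 CPM.

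Lmnb1 (ENSMUSG00000024590.8) lies on chromosome 18 of GRCm38 from 56707813 to 56753424. It was at 167, 156, 117 and 86.7 CPM in non-senescent replicates 1 to 4 and at 16.7, 14.3, 19.5 and 19.2 CPM in the senescent ones. The lowest non-senescent culture was far above the highest senescent one. The log2 fold change was -2.92 ± 0.22 (SE, edgeR adjusted p = 1.41e-05), a 7.56-fold lower level. Between 428 and 720 reads still fell on the gene in each senescent culture.

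Lmnb2 (ENSMUSG00000062075.13), on chromosome 10 from 80901203 to 80918245, was at 56.5, 54.7, 50.8 and 34.3 CPM in non-senescent PTEC. The senescent cultures were tightly grouped at 27.2, 28.8, 29.1 and 28.6 CPM. The groups did not overlap, with a log2 fold change of -0.79 ± 0.16 (SE, edgeR adjusted p = 0.00391). The confidence intervals of the B-type lamins did not meet, at -3.42 to -2.42 for Lmnb1 and -1.15 to -0.42 for Lmnb2 (95%, log2 fold change).

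Lmna (ENSMUSG00000028063.15), on chromosome 3 from 88480147 to 88509956, was at 550.2, 499.8, 670.1 and 391 CPM in non-senescent and at 431, 438, 338 and 334 CPM in senescent PTEC. Non-senescent replicate 4 lay among the senescent cultures, so the groups overlapped. The log2 fold change of -0.45 was not called (95% confidence interval -0.87 to -0.04, adjusted p = 0.0743 from edgeR). Without that culture it was -0.58 (adjusted p = 0.0206 from edgeR) and Lmna was called. With the replicate number as a block the log2 fold change was -0.44 (adjusted p = 0.0460 from edgeR), which passes the p threshold and not the fold threshold.

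Lbr encodes the lamin B receptor, an inner nuclear membrane protein that binds B-type lamins and heterochromatin and also acts in sterol synthesis. The gene (ENSMUSG00000004880.11) lies on chromosome 1 from 181815335 to 181843046. Its levels were 121, 107, 72.5 and 83.2 CPM in non-senescent and 20.01, 22.2, 18.2 and 20.9 CPM in senescent PTEC. All senescent cultures were below all non-senescent ones, with a log2 fold change of -2.24 ± 0.18 (SE, edgeR adjusted p = 1.84e-05).

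Tmpo (ENSMUSG00000019961.17, chromosome 10 from 91147571 to 91181315) encodes the lamina-associated polypeptides LAP2. It was at 468, 439, 345 and 322 CPM in non-senescent and at 136, 123, 144 and 133 CPM in senescent PTEC, a log2 fold change of -1.55 ± 0.15 (SE, edgeR adjusted p = 6.48e-05). Banf1 (ENSMUSG00000024844.14, chromosome 19 from 5364638 to 5367168) encodes a small protein that links DNA to the LEM domain proteins of the nuclear envelope, LAP2 among them. It was at 150.2, 130.4, 229 and 100.4 CPM in non-senescent and at 55.2, 51.9, 75.7 and 55.4 CPM in senescent PTEC. In both groups replicate 3 was the highest, and every senescent culture was below every non-senescent one. The log2 fold change was -1.36 ± 0.24 (SE, edgeR adjusted p = 0.00184). By annotation Banf1 shares 428 exonic bases with Eif1ad on the opposite strand, which was at 56.9 CPM in non-senescent and 33.2 CPM in senescent PTEC, and whether reads were counted by strand is not given in the sources used here.

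Hmgb2 (ENSMUSG00000054717.7), on chromosome 8 from 57511907 to 57515999, was at 161, 167, 133 and 89.1 CPM in non-senescent PTEC. In senescent PTEC it was at 8.78, 8.61, 8.78 and 6.05 CPM, or 175 to 325 reads. The groups were far apart, with a log2 fold change of -4.09 ± 0.24 (SE, edgeR adjusted p = 3.23e-06), a 17.04-fold lower level. This was the lowest value among the 10 genes, and by p it ranked 54 among the 15434 genes tested.

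Hmgb1 (ENSMUSG00000066551.12), on chromosome 5 from 149046702 to 149184489, was at 282, 281, 259 and 176 CPM in non-senescent and at 80.2, 93.8, 89.2 and 87.3 CPM in senescent PTEC. The groups did not overlap, and the log2 fold change was -1.51 ± 0.17 (SE, edgeR adjusted p = 0.000115). Its 95% confidence interval, -1.88 to -1.14, did not meet that of Hmgb2, -4.62 to -3.56. These are transcript levels and do not show where the HMGB1 protein was.

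Hmga1 (ENSMUSG00000046711.15), on chromosome 17 from 27556497 to 27563674, was at 275, 249, 289 and 140.0 CPM in non-senescent and at 53.9, 49.3, 89.5 and 66.8 CPM in senescent PTEC. Its log2 fold change was -1.88 ± 0.26 (SE, edgeR adjusted p = 0.000468), and the groups did not overlap. Hmga1b, a protein-coding near copy whose reads may be split with Hmga1, was at 4.98 and 1.32 CPM. Hmga2 (ENSMUSG00000056758.14), on chromosome 10 from 120361275 to 120476469, was at 163, 107, 90.5 and 62.7 CPM in non-senescent and at 36.5, 27.8, 46.5 and 38.0 CPM in senescent PTEC. All senescent cultures were lower, with a log2 fold change of -1.51 ± 0.28 (SE, edgeR adjusted p = 0.00204). The HMGA genes were thus lower at the transcript level, and HMGA protein on chromatin was not measured.

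Non-senescent replicate 4 was the lowest of its group for 9 of the 10 genes, and replicate 3 was the lowest for Lbr. The share of all genes that were lowest in replicate 4 was not counted. This order therefore describes the culture and is no result about the 10 genes. Replicate 4 also had the lowest sum of 14 proliferation markers, 1725 CPM against 2120 to 2890 CPM in the other 3 cultures, and the highest sum of proximal tubule markers, 794 CPM against 209 to 229 CPM. In senescent PTEC the proliferation markers summed to 145 to 166 CPM, and all 14 were called lower, with a median log2 fold change of -4.81. The part of dividing cells in the levels of the lamina and HMG genes was not tested. Fibroblast and pericyte markers summed to 17.5 to 108 CPM in non-senescent and 130 to 482 CPM in senescent PTEC, and leukocyte markers to 40.0 to 62.0 and 18.2 to 41.2 CPM. Their part was not tested either.

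Other genes of the envelope and of chromatin were looked at as fixed lists, and their counts are read against the 19.7% lower and 20.1% higher over all genes. Of 26 other lamina and inner nuclear membrane genes 25 were tested, and 5 were lower and 2 higher, with a median log2 fold change of -0.10. With the replicate number as a block, 5 were lower and 3 higher. As a share the lower genes were close to those of the whole table and the higher ones below it, so the list as such did not stand out. Among its single genes Nrm, the gene of the membrane protein nurim, was at -2.82 and Vrk1, a kinase that phosphorylates BANF1, at -1.80. Tmem43, which encodes the membrane protein LUMA, was higher by 0.94 and Sun2, a part of the bridge between nucleus and cytoskeleton, by 0.57. Adjusted p-values of these 4 genes were at most 0.00238 from edgeR. Emerin (Emd), the nesprins Syne1 and Syne2, and Zmpste24, the protease that matures lamin A, were among the 18 genes with no call in the fit without the block.

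Of 18 other HMG box, HMGN and related genes, 16 were tested, 4 were lower and none was higher, with a median of -0.17. The share of lower genes was close to the 19.7% over all genes. The lowest were the nucleosome-binding Hmgn2 (-2.26, adjusted p = 8.30e-05 from edgeR) and Hmgn5 (-1.10, adjusted p = 0.00101), and Ssrp1 (-0.79), a subunit of the histone chaperone FACT, and Ubtf (-0.54), a factor of ribosomal RNA transcription, were lower as well. Hmgb3, the third HMGB gene, was not called. Of 22 heterochromatin genes 12 (54.5%) were lower, against 19.7% of all genes, and none was higher, with a median of -0.56. The lowest were the histone chaperone Asf1b (-4.07) and Uhrf1 (-3.72), which guides DNA methylation after replication. Suv39h1 (-1.59) and Suv39h2 (-2.23), which write the H3K9 methyl mark, and Ezh2 (-1.89), which writes H3K27 methylation, were lower too and were picked as examples after their values were seen. The called genes nearest to 0 were Trim28 (-0.58) and the macroH2A gene H2afy (-0.54).

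Of 10 HMGB1 receptors and partners 8 were tested, and Havcr2 was lower (-1.03, adjusted p = 0.0497 from edgeR) while the others were not called, a share below the 19.7% over all genes. With the replicate number as a block, 1 gene of this list was called higher and 1 lower. Of 16 genes around Hmga2 in the Lin28, let-7 and IMP system, which governs its messenger RNA, 13 were tested, and 11 of these reached the minimum of the filter on low counts in both groups. Of the 11, 3 (27.3%) were lower and 2 (18.2%) higher. Among all 13948 genes that reached this minimum in both groups, 19.9% were lower and 17.6% higher. Igf2bp1 (-1.46) and Igf2bp2 (-0.64), which encode RNA-binding proteins, and E2f5 were lower. Plag1 (1.47) and Igf2bp3 (1.09) were higher. Igf2 passed the filter through the senescent cultures alone, so its call is no independent result. It had 0 to 1 counts in non-senescent and 32 to 64 counts in senescent cultures, at least 13.6-fold higher against a floor of 3 counts per library. Lin28a and Lin28b were too low to be tested. No test compared these lists with the 10 genes.

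**Figure D2:**
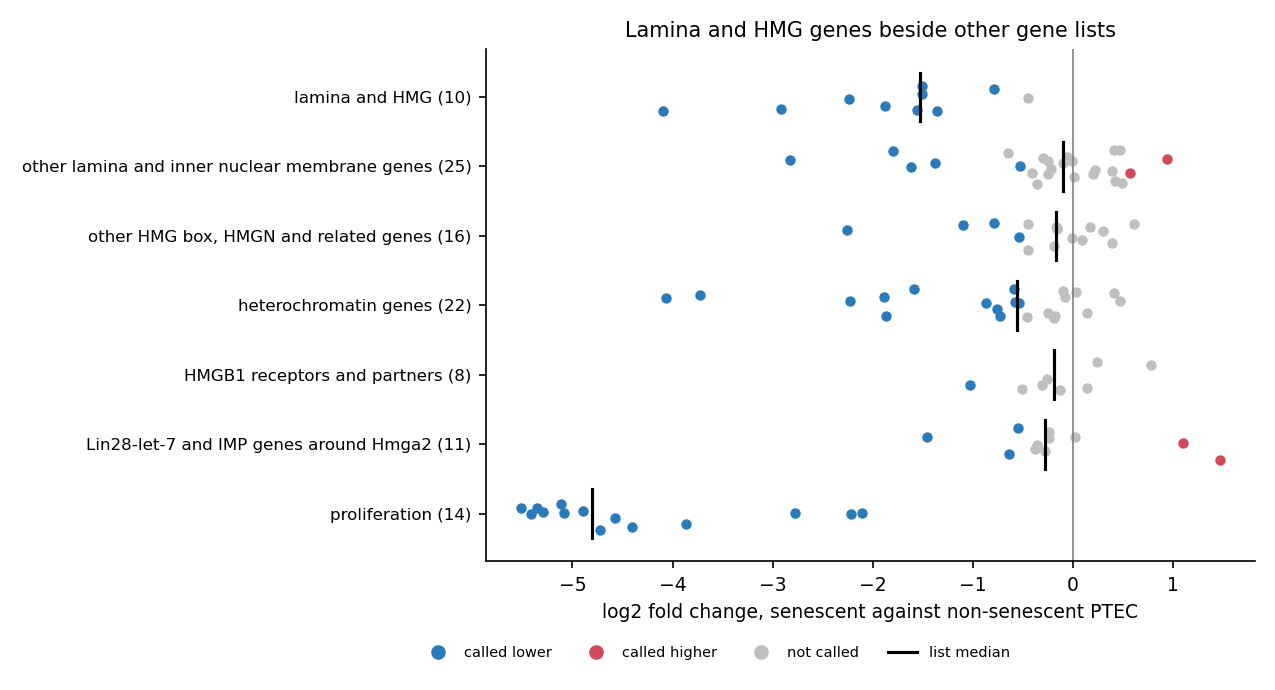
Log2 fold change of each gene, senescent against non-senescent PTEC, for the 10 lamina and HMG genes and 6 other lists, with the number shown in brackets, calls in colour and list medians as bars. Genes under the minimum of the low-count filter in 1 group, such as Igf2, are not drawn, and the 10 genes have a median of -1.53 and the proliferation markers one of -4.81.

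In kidneys none of the genes was called between any 2 ages. Of the 10 genes 9 were tested, since Hmga2 had too few reads. Between 24 and 3 months 1.89% of 17067 genes were called higher and 0.451% lower, between 12 and 3 months 1.22% and 1.36%, and between 24 and 12 months 0.896% and 0.434%. With edgeR at an unadjusted p under 0.05 there was 1 of the 9 genes between 24 and 3 months (18.2% of all genes), none between 12 and 3 months (16.5%) and 2 between 24 and 12 months (15.2%). DESeq2 also called none of the 9 in any of these comparisons. Between 12 and 24 months, where deviations of kidneys with the same replicate number correlated, the fit with a replicate block left 0 genes higher and 0 lower in the whole table. The median log2 fold change of the 9 genes was 0.11 at 24 against 3 months, 0.15 at 12 against 3 months and -0.14 at 24 against 12 months, beside medians of 0.00071, 0.0044 and -0.00044 over all genes.

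**Figure D3:**
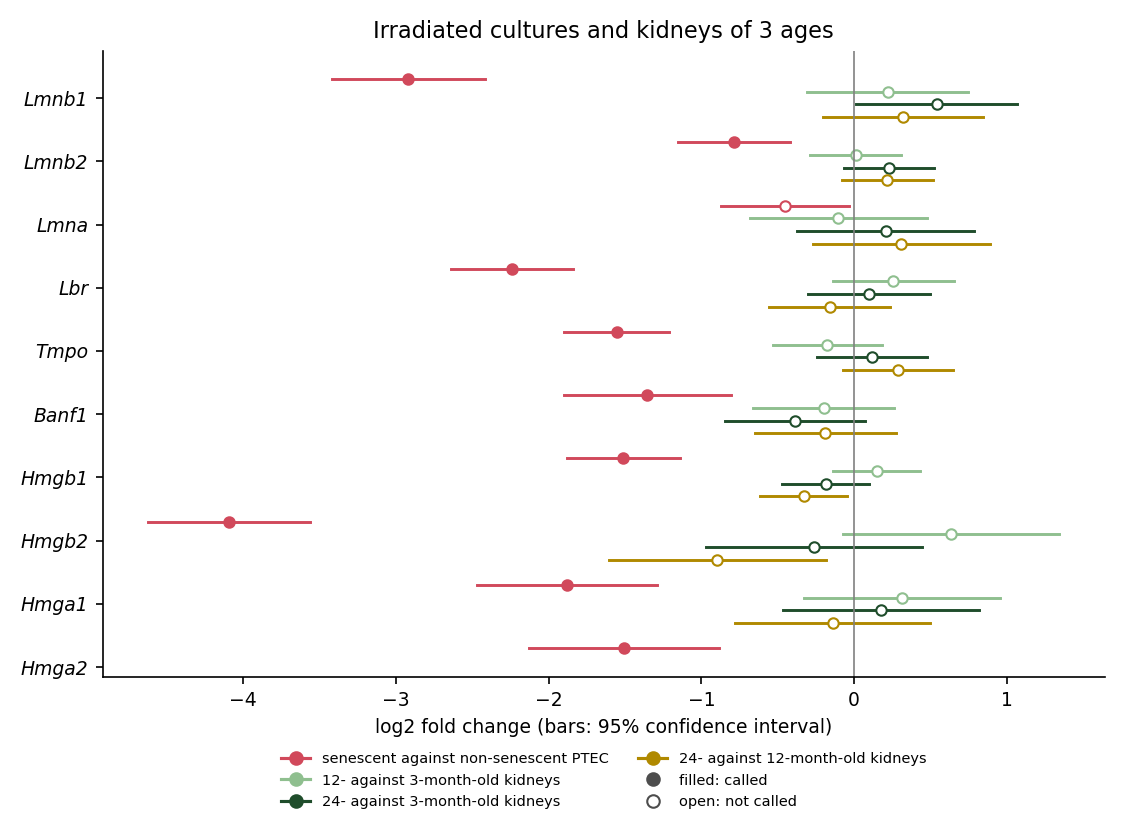
Log2 fold change with its 95% confidence interval for each gene in senescent against non-senescent PTEC (red) and between kidneys of 3, 12 and 24 months (green and ochre), filled where called. Hmga2 was not tested in kidneys, and no kidney comparison was called while 9 of 10 PTEC comparisons were.

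A full separation of 2 ages was common among all genes. Of the 17067 genes tested 11.9% were higher in every kidney of 24 months than in every kidney of 3 months and 10.1% lower, and at 24 against 12 months 13.5% were higher and 12.2% lower. Of the 9 genes this held for 2 higher at 24 against 3 months, and for 1 higher and 2 lower at 24 against 12 months, so these separations are values of single genes and no result about the 9.

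Lmnb1 was at 4.31, 3.52 and 2.77 CPM in kidneys of 3 months and at 4.96, 3.37 and 3.99 CPM in those of 12 months. At 24 months it was at 6.15, 4.89 and 4.35 CPM, just above the kidneys of 3 months and overlapping those of 12 months. The log2 fold change at 24 against 3 months was 0.54 (95% confidence interval 0.01 to 1.07, adjusted p = 0.264 from edgeR) and did not pass the test. Its sign was opposite to that in senescent PTEC. Lmnb2 was at 9.19, 8.64 and 8.23 CPM at 3 months, 9.37, 8.14 and 8.74 CPM at 12 months and 10.9, 10.2 and 9.43 CPM at 24 months. The oldest kidneys were the highest, without a call (log2 fold change 0.23, adjusted p = 0.364 from edgeR against 3 months). Lmna was at 72.4, 82.8 and 55.2 CPM, 75.3, 43.1 and 77.5 CPM, and 86.8, 65.2 and 90.7 CPM at the 3 ages, and all ages overlapped.

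Hmgb2 was at 16.9, 10.8 and 21.7 CPM at 3 months, 20.9, 34.6 and 21.1 CPM at 12 months and 12.7, 17.9 and 10.5 CPM at 24 months. Each kidney of 24 months was below each of 12 months, and the log2 fold change between them was -0.90 (95% confidence interval -1.61 to -0.19, adjusted p = 0.222 from edgeR), which was not called. Against 3 months it was 0.63 at 12 months (adjusted p = 0.375) and -0.26 at 24 months (adjusted p = 0.628), and those groups overlapped. Hmgb1 was at 125, 112 and 132 CPM at 3 months, 139.6, 130.0 and 138 CPM at 12 months and 103, 113 and 109 CPM at 24 months. Again the kidneys of 24 months were all below those of 12 months, with a log2 fold change of -0.33 (95% confidence interval -0.62 to -0.05, adjusted p = 0.257 from edgeR) and no call.

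Lbr lay between 29.8 and 49.6 CPM, Tmpo between 39.5 and 57.9 CPM, Banf1 between 39.9 and 75.8 CPM and Hmga1 between 4.72 and 10.5 CPM over the 9 kidneys, and for each of these the ages overlapped. Their log2 fold changes at 24 against 3 months were 0.10, 0.11, -0.39 and 0.17, with adjusted p-values of 0.334 or more from edgeR. The widest confidence interval among the 9 genes in that comparison was that of Hmgb2, -0.97 to 0.45, and the narrowest that of Hmgb1, -0.47 to 0.10. Hmga2, by contrast with PTEC, had 8, 2 and 1 reads at 3 months, 0, 3 and 1 at 12 months and 13, 1 and 1 at 24 months.

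**Figure D4:**
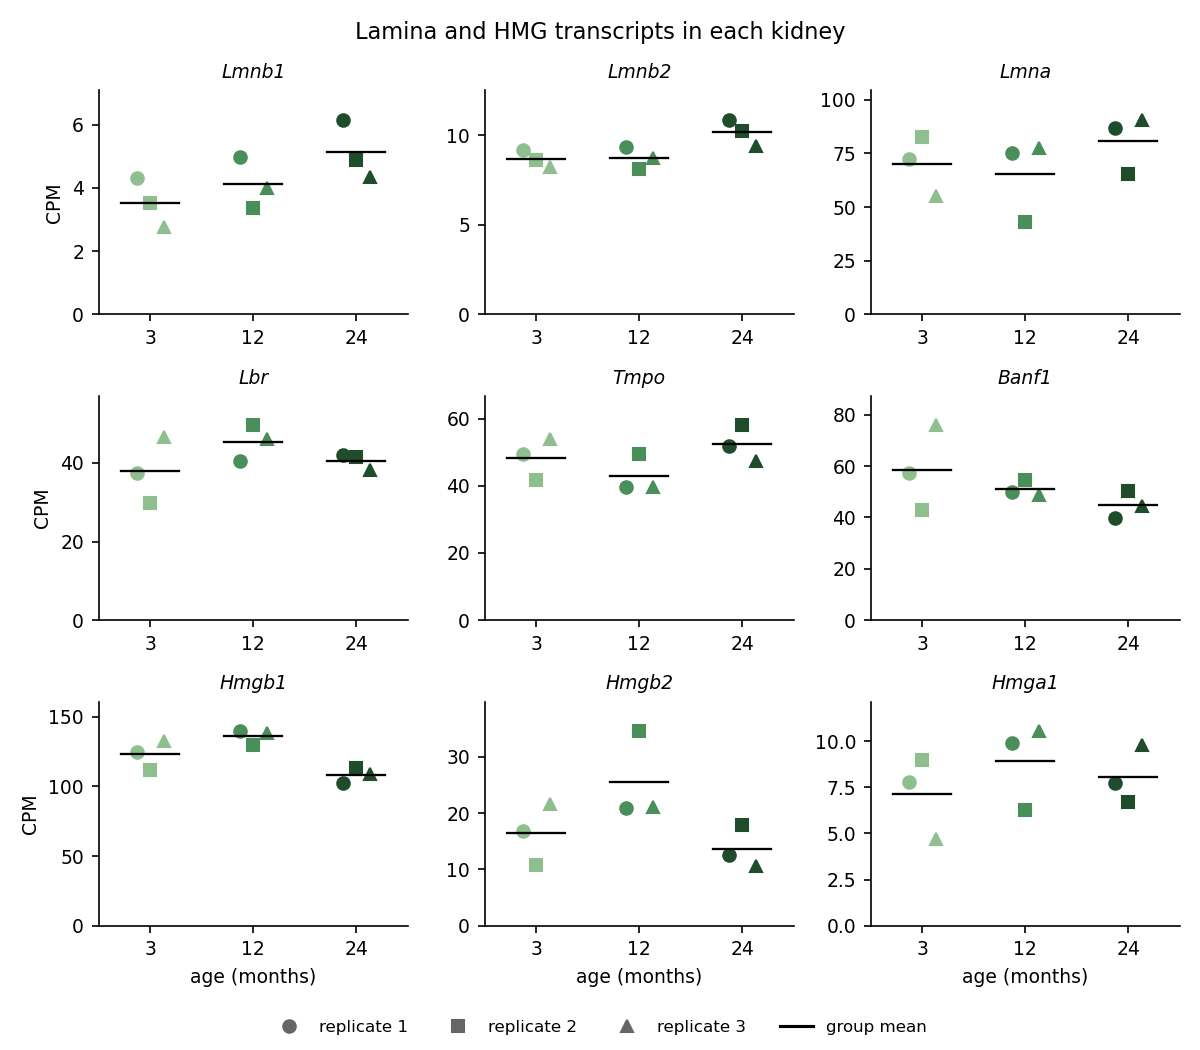
CPM of 9 of the genes in each of the 3 kidneys of 3, 12 and 24 months, with replicate numbers as symbols and group means as bars. Kidneys of 24 months lie above those of 3 months for Lmnb1 and Lmnb2 (11.9% of all genes do), above those of 12 months for Lmnb2 (13.5%) and below those of 12 months for Hmgb1 and Hmgb2 (12.2%), and no difference was called.

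Kidneys of 1 age differed from each other. The kidney with the lowest Lmna and Hmga1 of its age (replicate 3 at 3 months, replicate 2 at 12 and at 24 months) had the highest Hmgb2, Tmpo and Banf1 of its age each time, and the highest Lbr at 3 and 12 months. Its Hmgb1 was the highest at 3 and 24 months but the lowest at 12 months. Its Lmnb1 and Lmnb2 were the lowest at 3 and 12 months only. This pattern was described after the values were seen, and the share of all genes that follow it was not counted. The same kidney had the lowest summed proximal tubule markers, 7011 CPM against 10115 and 14010 CPM at 3 months, 8112 CPM against 14502 and 15117 CPM at 12 months, and 11420 CPM against 15461 and 15473 CPM at 24 months. The part of cell makeup in these levels was not tested. Summed B and plasma cell markers were 5.76 to 10.5 CPM at 3, 26.5 to 107 CPM at 12 and 57.8 to 396 CPM at 24 months, and leukocyte markers 80.2 to 89.6, 106 to 113 and 114 to 161 CPM. Fibroblast and pericyte markers summed to 126 to 143, 152 to 162 and 194 to 235 CPM, and macrophage markers to 109 to 175, 158 to 183 and 180 to 233 CPM. The sums of leukocyte markers and of fibroblast and pericyte markers did not overlap between ages. None of the 8 fibroblast and pericyte markers was called between any 2 ages by edgeR. Proliferation markers summed to 84.1 to 112, 72.9 to 83.4 and 90.7 to 141 CPM. Of these 14 markers, 4 were called higher at 24 than at 3 months (Plk1, Ccnb1, Mki67 and Top2a, log2 fold changes of 1.78 to 2.42), against 1.89% of all genes, with a median of 1.25. At 12 against 3 months Mcm5 was lower (-0.69, adjusted p = 0.0455 from edgeR). At 24 against 12 months 6 were higher, against 0.896% of all genes, and none of the 6 was called with the replicate block. Lmnb1 and Hmgb2 were called in none of these comparisons. The difference between them and the markers was not tested.

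Markers of other cells were also called higher at 24 against 3 months. These were 3 of 8 for T and NK cells and 1 of 8 each for leukocytes, macrophages and the proximal tubule, against 1.89% of all genes. Of the 6 B and plasma cell markers that reached the filter's minimum at both ages, 2 were higher. With the replicate block, none of the T and NK cell, leukocyte, macrophage and proximal tubule markers was called. With it, 3 of all B and plasma cell markers tested were higher. Their part in the levels of the lamina and HMG genes was not tested.

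The 5 other lists of envelope, chromatin, HMGB1 partner and Lin28 genes, with 85 genes tested, were read against the shares of all genes. At 24 against 3 months edgeR called none, where 1.89% of all genes were higher and 0.451% lower, 16 had an unadjusted p under 0.05 (18.8%, beside 18.2% of all genes), and DESeq2 called 3 higher. At 12 against 3 months 1 was lower (1.18%, beside 1.36%), Igdcc3 (-1.55, adjusted p = 0.0453 from edgeR) at under 1 CPM, and DESeq2 called 3 lower. At 24 against 12 months 3 were higher (3.53%, beside 0.896%), and DESeq2 called 3 higher and 1 lower. The DESeq2 calls are read against its own shares over 30029 genes, without the filter on low counts. These were 2.42% higher at 24 against 3 months and 1.92% lower at 12 against 3 months. At 24 against 12 months they were 1.64% higher and 0.952% lower. The 3 genes by edgeR were Igf2bp1 (1.29, adjusted p = 0.0181), Uhrf1 (1.51, adjusted p = 0.0443) and Tmem43 (0.66, adjusted p = 0.0411), and none of these calls remained with the replicate block.

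Cultured cells were then set beside tissue, with all 17 libraries scaled together. Of the 10 genes 9, all but Hmga2, reached the minimum of the filter on low counts in both groups. Of these 9, 8 were higher in non-senescent PTEC than in kidneys of 3 months and none was lower. Among all 13682 genes that reached it in both groups 33.4% were higher and 32.6% lower, and among all 17999 genes tested 32.0% and 35.5%. The median log2 fold change of the 9 genes was 2.28, beside 0.033 over the 13682 genes. Culture, cell makeup and the gene set used for counting differ between these groups and cannot be told apart. Proliferation markers moved alongside, with 13 of 13 that reached the minimum in both groups higher in PTEC and a median of 5.79, and their part was not tested.

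Hmga2 was at 84.2 ± 34.4 CPM (SD, n = 4) on the shared scale in non-senescent PTEC, at 29.1 ± 6.18 CPM in senescent PTEC, and at or under 0.258 CPM in each kidney. With 8, 2 and 1 reads in the kidneys of 3 months it passed the filter on low counts only through PTEC, so its call there is no independent result and no fold is given. Lmnb1 was at 105 ± 29.9 CPM in non-senescent PTEC, 13.6 ± 1.91 CPM in senescent PTEC and 4.35 ± 0.93 CPM in kidneys of 3 months (n = 3), and non-senescent PTEC were higher than kidneys by 4.59 ± 0.28 on the log2 scale (SE, edgeR adjusted p = 2.62e-10). Hmga1 was higher by 4.43 (adjusted p = 5.72e-09) at 189.5 ± 54.4 CPM against 8.81 ± 2.65 CPM. Hmgb2 (2.43), Tmpo (2.39), Lmna (2.28) and Lmnb2 (1.87) were also higher, with adjusted p-values of at most 1.81e-06 from edgeR.

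Smaller log2 fold changes between culture and tissue were found for Banf1, Lbr and Hmgb1. Banf1 was higher by 0.74 (adjusted p = 0.0132 from edgeR), and without non-senescent replicate 3 this fell to 0.49 (adjusted p = 0.0521) and was no longer called. Lbr was higher by 0.70 (adjusted p = 0.00288) although its groups overlapped narrowly, with 57.5 CPM in the lowest culture and 57.7 CPM in the highest kidney. Hmgb1 was at 198.5 ± 40.7 CPM in PTEC and 151 ± 13.5 CPM in kidneys, and its log2 fold change of 0.39 (adjusted p = 0.0391) stayed under the fold threshold. It was called without non-senescent replicate 4 (0.53) and without kidney 3 months replicate 3 (0.51).

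Counts of the other lists are given over genes that reached the filter's minimum in both groups, and are read against the 33.4% higher and 32.6% lower among all such genes. In non-senescent PTEC 11 of 25 lamina and inner nuclear membrane genes (44.0%) were higher and 4 lower (median 0.46), with Nrm at 3.49, the nesprin Syne3 at 3.16, Syne4 at -3.51 and Tmem38a at -1.18. Of 16 HMG box, HMGN and related genes 9 (56.2%) were higher and 3 lower (median 0.60), with Cic at 1.76, Ssrp1 at 1.69, Hmgn5 at -0.99 and Tox3 at -3.16. Of 22 heterochromatin genes 16 (72.7%) were higher and none lower (median 1.16), led by Uhrf1 at 5.89 and Asf1b at 5.07, with Hira at 0.55 and H2afy at 0.75 the smallest of those called. Of 8 HMGB1 receptors and partners 4 were higher and 3 (37.5%) lower, with the toll-like receptors Tlr4 at 2.75 and Tlr2 at 2.59, the chemokine Cxcl12 at -3.56 and its receptor Cxcr4 at -2.53. Of 10 genes around Hmga2 8 (80.0%) were higher and 1 lower (median 1.23), with Igf2bp2 at 3.62, Plagl2 at 2.15 and E2f5 at -0.92. Tox, Tlr9, Trim71, Igdcc3, Igf2bp3 and Igf2 were under the minimum in at least 1 of the groups and are left out of these counts.

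Apart from Hmga2, each of the genes had its highest mean of the 5 groups in non-senescent PTEC, as did 24.5% of the 17999 genes tested. Senescent PTEC took different places. For Lmnb1, Lmnb2, Lmna, Tmpo and Hmga1 they came second, above every kidney, an order found in 10.8% of all genes. For Lbr, Hmgb1 and Hmgb2 they came last, below every kidney, an order found in 0.961% of all genes. These orders were described after the values were seen. Hmga2 had the same order as Lmnb1, but it passed the filter on low counts only through PTEC, so its place is no independent result. Lbr was at 15.9 ± 1.19 CPM in senescent PTEC and 46.8 to 56.6 CPM in the means of the kidney groups. Hmgb1 was at 68.5 ± 4.23 CPM against means of 133 to 170 CPM. Hmgb2 was at 6.30 ± 1.09 CPM against means of 16.9 to 31.8 CPM. Banf1 was also lowest in senescent PTEC, at 46.6 ± 8.92 CPM, but overlapped the kidneys of 3 and of 24 months. On this shared scale, kidney ages next to each other in the order of means overlapped for all 10 genes, while on the scale of the kidneys alone Lmnb2 at 24 months (lowest 9.43 CPM) lay just above 12 months (highest 9.37 CPM). Differences between senescent PTEC and kidneys were not tested.

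Levels of different genes were compared as CPM per kilobase of annotated exon on the shared scale. The length joins all annotated exons of a gene, 2962 bases for Lmnb1, 5838 for Lmna and 10998 for Tmpo. It can exceed the length of the transcripts present, so ranks of genes and shares between genes depend on it. In non-senescent PTEC Hmga1 (89.2 ± 25.6 CPM per kilobase), Banf1 (81.0 ± 29.1) and Lmna (71.9 ± 15.9) were the most abundant and Lmnb2 (9.11 ± 1.92) the least. In senescent PTEC Lmna (51.6 ± 7.59) led and Hmgb2 (2.10 ± 0.36) was last. In kidneys of 3 months Banf1 (48.4 ± 13.8) and Hmgb1 (30.2 ± 2.69) led, and Lmnb1 (1.47 ± 0.31) was above Hmga2 alone.

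The make-up of lamin transcripts followed from these levels. Per kilobase, Lmnb1 made up 30.3% ± 5.36 (SD, n = 4) of the 3 lamin genes in non-senescent PTEC and 7.64% ± 1.85 in senescent PTEC, and the groups did not overlap. In kidneys its share was 7.84% ± 1.14 at 3, 9.67% ± 1.44 at 12 and 9.72% ± 1.80 at 24 months (n = 3 each). Lmnb2 held 7.83% ± 0.56 and 8.54% ± 1.12 in the PTEC groups and 13.4% to 14.5% in the kidney means. Lmna accordingly went from 61.9% ± 5.90 to 83.8% ± 2.92 in PTEC, beside 75.8% to 78.6% in kidneys. Hmgb2 was 47.7% ± 1.93 of Hmgb1 and Hmgb2 together in non-senescent PTEC, 13.3% ± 2.16 in senescent PTEC and 17.96% ± 3.83, 23.7% ± 6.13 and 17.3% ± 3.52 in kidneys by age. Hmga2 was 12.2% ± 2.77 and 15.4% ± 1.503 of the HMGA transcripts in the PTEC groups, which overlapped, and at most 0.838% in any kidney.

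**Figure D5:**
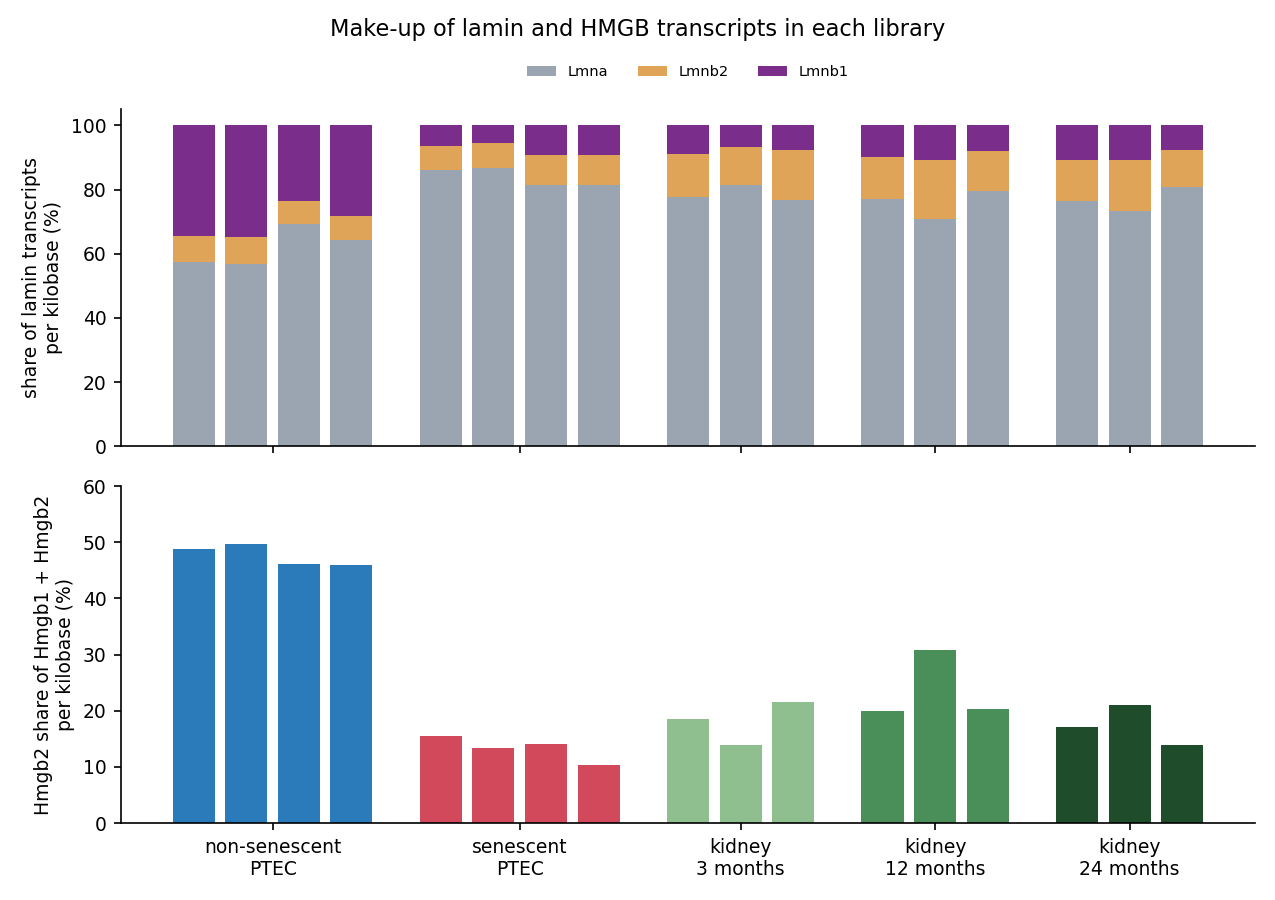
Share of each lamin gene among lamin transcripts per kilobase (top) and of Hmgb2 among Hmgb1 and Hmgb2 (bottom) in each library, grouped as non-senescent PTEC, senescent PTEC and kidneys of 3, 12 and 24 months. Lmnb1 takes 23.7% to 34.9% in non-senescent PTEC, 5.59% to 9.22% in senescent PTEC and 6.84% to 10.9% in kidneys.

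The genes whose log2 CPM was most like that of 4 members over the 17 libraries were picked by Pearson's r among the 13939 genes that reached a mean of 1 CPM. The 17 points share their culture or tissue within groups, and r is given as a description. Lmnb1 was most like Mcm4 (r = 0.992), Hnrnpa1 (0.992) and Incenp (0.992). Hmgb2 was most like Tk1 (0.981), Cenpq (0.973) and Prim1 (0.970). Lmna was most like Vat1 (0.992), Akt1 (0.990) and Tnfaip1 (0.989), and Hmga2 was most like Slc25a24 (0.992), Hdac7 (0.992) and Slc7a11 (0.991). Hmga2 had 0 to 13 reads in the kidneys, so its r sets PTEC against libraries with few or no reads. The 3 genes closest to Lmnb1 and the 3 closest to Hmgb2 had no gene in common.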

How the data were processed

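RNA of 8 PTEC cultures and 9 kidneys was sequenced by the authors from stranded poly(A) libraries in paired-end reads and processed with nf-core/rnaseq on GRCm38. The authors deposited raw counts per gene, without normalization, for each library. Aligner, counter and strand setting are not given in the sources used here. PTEC, kidneys of 3 months and older kidneys were counted on 53715, 54146 and 55401 identifiers, which were joined without version. Identifier versions differ between these sets for Banf1 and Hmga1. Kidneys of 3 months thus differed from older kidneys in gene set as well as in age. Reads counted per kidney did not overlap between ages either. They were 37311247 to 49471409 at 3 months, 54097073 to 59718029 at 12 months and 62761670 to 66894790 at 24 months. The part of gene set and depth in the comparisons of ages was not tested. Symbols and positions are from GENCODE M 21 (GRCm38) and promoters from RefSeq (GRCm38.p6).

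Counts were tested in R 4.3.3 with edgeR 4.0.16 (TMM, filterByExpr, robust quasi-likelihood fit, Benjamini-Hochberg adjustment over all genes tested), with DESeq2 1.42.0 as an alternative. PTEC were fitted alone, the 9 kidneys together, and all 17 libraries for culture against tissue. CPM of PTEC and of kidneys come from their own scaling unless the shared scale is named. Standard errors and 95% confidence intervals were derived from the F statistics. The method was tested on simulated data, and figures were drawn in Python 3.11.15 with pandas 2.3.3, numpy 2.4.6 and matplotlib 3.10.9. Sampling depth is as given above, and no fold is given for genes that were under the filter's minimum (10 counts at the median library size) in most libraries of a compared group, except as a bound for Igf2. Counts of calls over genes at that minimum in both groups were added after seeing the data.

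The 10 genes, the other lists and the motifs were chosen with earlier results of these data known. All 10 genes are named in each comparison, with the 2 highest and the 2 lowest called genes of each list by log2 fold change, a few further list genes as examples, and the 3 genes most like Lmnb1, Hmgb2, Lmna and Hmga2. Deviations of same-numbered PTEC correlated with r from 0.186 to 0.614, and those of kidneys of 12 and 24 months with r from 0.172 to 0.557, so these numbers were taken to pair the samples by the data and not by a label. Alternatives were DESeq2 size factors, no filter, DESeq2, the p threshold alone, a replicate block, the compared groups alone and each library left out.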

Additional observations from a re-analysis of the deposited data

Results flagged for a closer look

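In each PTEC group of 4 the most extreme culture was compared with the others by Dixon's gap over range, and 2 of 20 gene and group combinations passed its 95% critical value, where chance gives about 1 in 20. Banf1 in senescent replicate 3 was at 75.7 CPM, with the other 3 cultures between 51.9 and 55.4 CPM (gap over range 0.856). Hmgb2 in senescent replicate 4 was at 6.05 CPM, with the others between 8.61 and 8.78 CPM (gap over range 0.936). Both genes were called lower in senescent PTEC without these cultures too.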

How the results depend on the processing

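The number of lamina and HMG genes called was 9 of 10 in PTEC under each alternative (10 without non-senescent replicate 4) and 0 of 9 in each kidney comparison. In culture against tissue it was 8 of the 9 genes at the filter's minimum in both groups (Hmga2 left out, as chosen after seeing the data), 9 with the p threshold alone, and 7 to 9 with libraries left out in turn. The replicate block changed no call of these genes, and with it the log2 fold change of Lmnb1 in PTEC was -2.88. No paired analysis was possible for PTEC against kidneys because their numbers have no shared meaning. In kidneys, signs that changed belong to uncalled values near 0, and the cause was not tested. With libraries left out in turn, log2 fold changes at 24 against 3 months ranged from -0.043 to 0.27 for Lbr and from -0.055 to 0.37 for Hmga1, at 12 against 3 months from -0.041 to 0.063 for Lmnb2, -0.25 to 0.13 for Lmna and -0.38 to 0.027 for Banf1, and at 24 against 12 months from -0.34 to 0.0028 for Hmga1. DESeq2 gave -0.00087 for Lmnb2 at 12 against 3 months. Counts over all genes (higher and lower) moved more. At 24 against 3 months they were 322 and 77, with 727 and 308 by DESeq2, 102 and 24 with a replicate block, 208 and 57 with these ages alone, and 52 to 460 and 22 to 334 with kidneys left out in turn. At 12 against 3 months they were 209 and 232, with 531 and 576 by DESeq2, 52 and 66 with the block, 38 and 26 alone, and 31 to 249 and 21 to 467 with kidneys left out in turn. At 24 against 12 months they were 153 and 74, with 493 and 286 by DESeq2, 141 and 46 alone, and 0 and 0 with the block, where every kidney left out also lowered them, to between 0 and 55 higher. Same-numbered kidneys of 3 and 24 months correlated with r from -0.420 to -0.0336 and of 3 and 12 months from -0.701 to -0.0486. Groups of 3 kidneys and 123 to 403 reads per kidney limit Lmnb1 in kidneys, and Hmga2 was not testable there.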
